A study of Mus musculus with 18 samples.

Results

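The dystrophin glycoprotein complex is followed here through 8 genes, taken by name out of the 43430 genes in the count table. They are Dmd (dystrophin), Utrn (utrophin), Dag1 (dystroglycan), the sarcoglycan genes Sgca, Sgcb and Sgcd, Dtna (alpha-dystrobrevin) and Sspn (sarcospan). They were chosen by name, with earlier results of these data known, and all 8 were among the 13596 that passed the filter on low counts. RNA came from myofibers of the quadriceps of C57BL/6 mice (C57BL/6J in the study's methods), in 6 groups of 3 libraries by sex and treatment, which were male vehicle, male weekly prednisone, male daily prednisone, female vehicle, female weekly prednisone and female daily prednisone. Prednisone is a synthetic glucocorticoid, given to adult wild-type animals by injection for a month, and vehicle animals served as the controls of each sex. By the study's methods the dose per injection was the same on both schedules, and weekly animals received vehicle on the other days. Total dose and time since the last prednisone injection thus differed with the schedule and cannot be told apart from it. Myofibers were freed with collagenase and retained by a strainer, so vessels, nerve and fat that stay attached to fibers can contribute RNA.

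The complex links the actin cytoskeleton of the muscle fiber to laminin in the matrix around it and protects the membrane while the fiber contracts. Dystrophin binds actin at one end and dystroglycan at the other, the sarcoglycans and sarcospan form a subcomplex in the membrane, and dystrobrevin joins on the cytoplasmic side and recruits the syntrophins. Utrophin is the close relative of dystrophin that sits at the neuromuscular junction of adult fibers and is also made in vessels and many other tissues. Loss of dystrophin causes Duchenne muscular dystrophy, which is treated with daily glucocorticoids, and loss of a sarcoglycan causes limb-girdle muscular dystrophy. The question for these genes was whether their RNA differed between the daily and the weekly schedule in muscle that has an intact complex.

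Libraries held between 10506661 and 14686654 counts. Mitochondrially encoded genes took between 11.7% and 36.4% of a library, with 11.7% to 18.3% in the daily females against 21.1% to 26.3% in the vehicle females. All 8 markers of myofibers were above 1 CPM on average under each treatment, and their summed level ranged from 96239 to 179124 CPM. The daily libraries carried 52.9 to 93.5 CPM of 3 blood markers against 73.1 to 133.5 CPM in the vehicle libraries. They carried 504 to 1956 CPM of 6 adipocyte markers against 281 to 625 CPM, with 6 of these markers above 1 CPM on average in the daily and 5 in the vehicle libraries. The part of these differences in the results that follow was not tested except where a value is given. In such bulk samples, fewer cells of a type and less RNA per cell cannot be told apart.

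The sequences of 4 start regions are shown because Dmd and Dag1 were the 2 members that rose with daily prednisone and Utrn is the relative of Dmd that did not pass the test. Sequences are from RefSeq, on GRCm38.p6, the patch release of the mm10 build. Each holds the 250 bases before a listed transcript start, written 5′ to 3′ on the strand of the gene. For Utrn the count table and GENCODE release 21 give different gene bounds, so its window may not lie at the start of the full gene. Capitals mark the hexamer of the glucocorticoid response element, AGAACA or its reverse complement TGTTCT, each searched on both strands.
Dmd, start of the full-length gene, chrX:82948620-82948869, plus strand: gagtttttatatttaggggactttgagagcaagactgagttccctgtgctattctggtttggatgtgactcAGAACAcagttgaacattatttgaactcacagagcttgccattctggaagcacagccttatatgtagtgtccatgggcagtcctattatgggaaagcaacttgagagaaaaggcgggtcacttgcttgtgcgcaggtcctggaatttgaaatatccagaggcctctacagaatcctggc
Dmd, internal start, chrX:85048045-85048294, plus strand: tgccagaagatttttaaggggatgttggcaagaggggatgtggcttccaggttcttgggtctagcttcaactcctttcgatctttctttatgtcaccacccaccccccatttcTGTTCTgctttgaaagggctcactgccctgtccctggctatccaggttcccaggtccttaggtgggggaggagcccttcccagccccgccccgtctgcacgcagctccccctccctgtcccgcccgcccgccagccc
Dag1, chr9:108263959-108264208, minus strand: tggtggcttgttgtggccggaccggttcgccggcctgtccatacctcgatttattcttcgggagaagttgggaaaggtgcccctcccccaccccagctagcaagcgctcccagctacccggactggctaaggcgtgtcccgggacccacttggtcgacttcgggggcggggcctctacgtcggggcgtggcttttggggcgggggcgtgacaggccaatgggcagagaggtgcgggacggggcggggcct
Utrn, chr10:12861736-12861985, minus strand: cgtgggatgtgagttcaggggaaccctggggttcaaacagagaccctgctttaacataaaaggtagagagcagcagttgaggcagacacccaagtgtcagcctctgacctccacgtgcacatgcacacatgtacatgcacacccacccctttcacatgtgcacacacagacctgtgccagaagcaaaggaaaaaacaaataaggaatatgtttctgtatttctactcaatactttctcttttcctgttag

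Both Dmd windows held 1 hexamer, while the windows of Dag1, Utrn, Sgca, Sgcb, Sgcd and Sspn held 0. For Sgcb, Sgcd and 1 of the Sspn windows, the bases after the window matched the start of no GENCODE transcript of the gene. The Sgcd window lies inside the annotated gene. These windows may thus not lie at the start of the full gene. The hexamer occurred in 16.1% of the 32817 windows of this length in the table, so the letters are common. A match is a run of letters and not a measured binding site, and a window without a match says nothing of the receptor elsewhere. The palindrome of AGAACA followed after 3 bases by TGTTCT was in no member's window and in 3 windows of the whole table. Windows were listed for 7 of the 8 members, and Dtna had none. The windows also differed in base composition, with 45.2% G and C before the full-length Dmd start, 60.0% before its internal start, 67.6% for Dag1 and 46.8% for Utrn.

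Per length of exon, the members covered a wide range of levels in the 6 vehicle libraries. Sgca was the highest, at 97.6 ± 12.6 RPKM (SD, n = 6), where RPKM is counts scaled to the length of the exons and to the size of the library. Dag1 stood at 31.7 ± 4.20 RPKM and Sgcb at 24.6 ± 3.26 RPKM, and the ranges of this neighboring pair overlapped. Sspn followed at 12.8 ± 3.35 RPKM. Utrn (3.03 ± 0.71 RPKM) and Dtna (2.85 ± 0.33 RPKM) also overlapped. Dmd stood at 1.51 ± 0.29 RPKM and Sgcd, the delta-sarcoglycan gene, was the lowest at 0.56 ± 0.12 RPKM. The other neighbors in this order did not overlap. Dividing by the longest transcript put Dtna (7.66 ± 0.89 RPKM) ahead of Utrn (4.18 ± 0.99 RPKM), and under that length the range of Dmd overlapped those of Utrn and Sgcd. The annotated exons of Dmd span 23801 bases over all its products and its longest transcript has 14910 bases, so the level of this gene depends on which product is assumed.

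**Figure D1:**
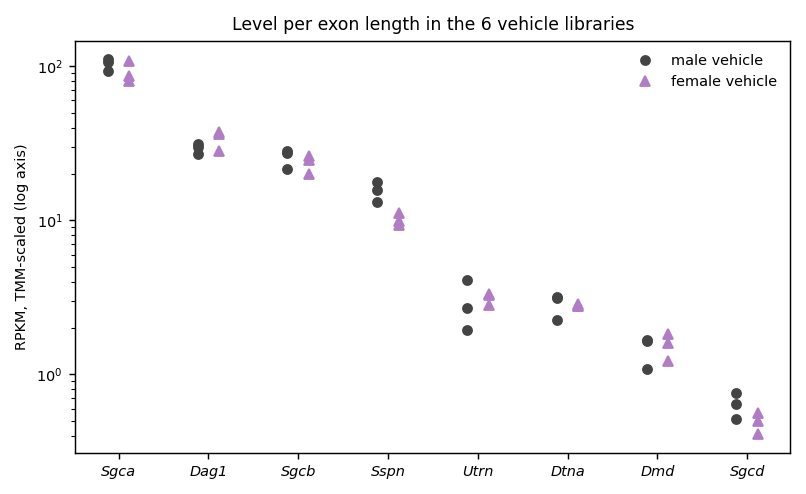
Level of each member in the 6 vehicle libraries, in RPKM on a log axis, with the union of annotated exons as the length. Circles are male and triangles female mice, and the genes are ordered by their mean from Sgca (97.6 RPKM) to Sgcd (0.56 RPKM); male and female points separate for Sspn.

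Dmd, the gene at the center of the complex, had more RNA in all 6 daily libraries than in any vehicle or weekly library. The gene (ENSMUSG00000045103) lies on the plus strand of chromosome X from 82948870 to 85206141, and its counts are summed over its full-length and short products. In males its level was 40.0, 39.2 and 25.7 CPM (counts scaled to library size with TMM factors) with vehicle, 34.3, 49.0 and 48.6 CPM with weekly prednisone and 56.4, 55.8 and 81.0 CPM with daily prednisone. In females it was 43.9, 29.2 and 37.9 CPM with vehicle, 47.5, 31.9 and 38.2 CPM with weekly prednisone and 66.8, 62.8 and 71.1 CPM with daily prednisone. The lowest daily library, at 55.8 CPM, lay above the highest weekly library, at 49.0 CPM, and the highest vehicle library, at 43.9 CPM. These levels rest on 247 to 1177 counts per library.

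Averaged over the sexes, Dmd rose 1.82-fold with daily prednisone, a log2 fold change of 0.87 ± 0.15 (standard error; edgeR quasi-likelihood test, adjusted p = 0.0020). Of all 13596 tested genes, 7.48% rose and 7.47% fell in that comparison. In males alone Dmd rose by 0.88 ± 0.21 on the log2 scale (edgeR adjusted p = 0.0248), where 2.07% of tested genes rose and 6.46% were called. In females alone the log2 fold change was 0.85 ± 0.21, which did not pass (edgeR adjusted p = 0.0751, and 0.0140 with DESeq2), where edgeR called 0.382% and DESeq2 3.73% of genes. The difference between the sexes in this response was -0.02 ± 0.30 (female minus male, edgeR adjusted p = 0.99). Dmd also rose against the weekly schedule over both sexes, by 0.66 ± 0.15 (edgeR adjusted p = 0.0171), where 4.3% of genes rose and 8.17% were called.

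The call for Dmd in males was lost without single libraries, with the removal of length or GC trends and with the adipocyte covariate. It was lost without male vehicle replicate 1 (log2 fold change 0.999, edgeR adjusted p = 0.0658), male vehicle replicate 3 (0.71, adjusted p = 0.0808), male daily replicate 2 (0.97, adjusted p = 0.0554) or male daily replicate 3 (0.71, adjusted p = 0.0974). The longest Dmd transcript is longer than those of 99.6% of tested genes, and its GC content of 41.5% is higher than that of only 8.57% of them. The 322 tested genes with a longest transcript of 10000 bases or more had a median log2 fold change of 0.25 with daily prednisone over both sexes, against 0.02 for all genes of known length, and 23.0% of them rose. Dmd lay above 95.7% of these long genes. With each library's trend on length and GC content removed, its log2 fold change over both sexes was 0.50 ± 0.15 (edgeR adjusted p = 0.0689), in males 0.43 (adjusted p = 0.356) and against weekly prednisone over both sexes 0.41 (adjusted p = 0.227), none of which passed. With the GC trend alone removed, the male value was 0.65 (adjusted p = 0.0853). With the adipocyte marker score as a covariate it was 0.74 over both sexes (adjusted p = 0.181) and 0.78 in males (adjusted p = 0.135). Over all alternatives apart from leaving out 1 library, the adjusted p over both sexes ranged from 1e-05 to 0.181. It ranged from 0.0048 to 0.356 in males and from 0.0020 to 0.246 against weekly prednisone. The call over both sexes held with each of the 18 libraries left out in turn (adjusted p from 0.00096 to 0.0068).

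**Figure D2:**
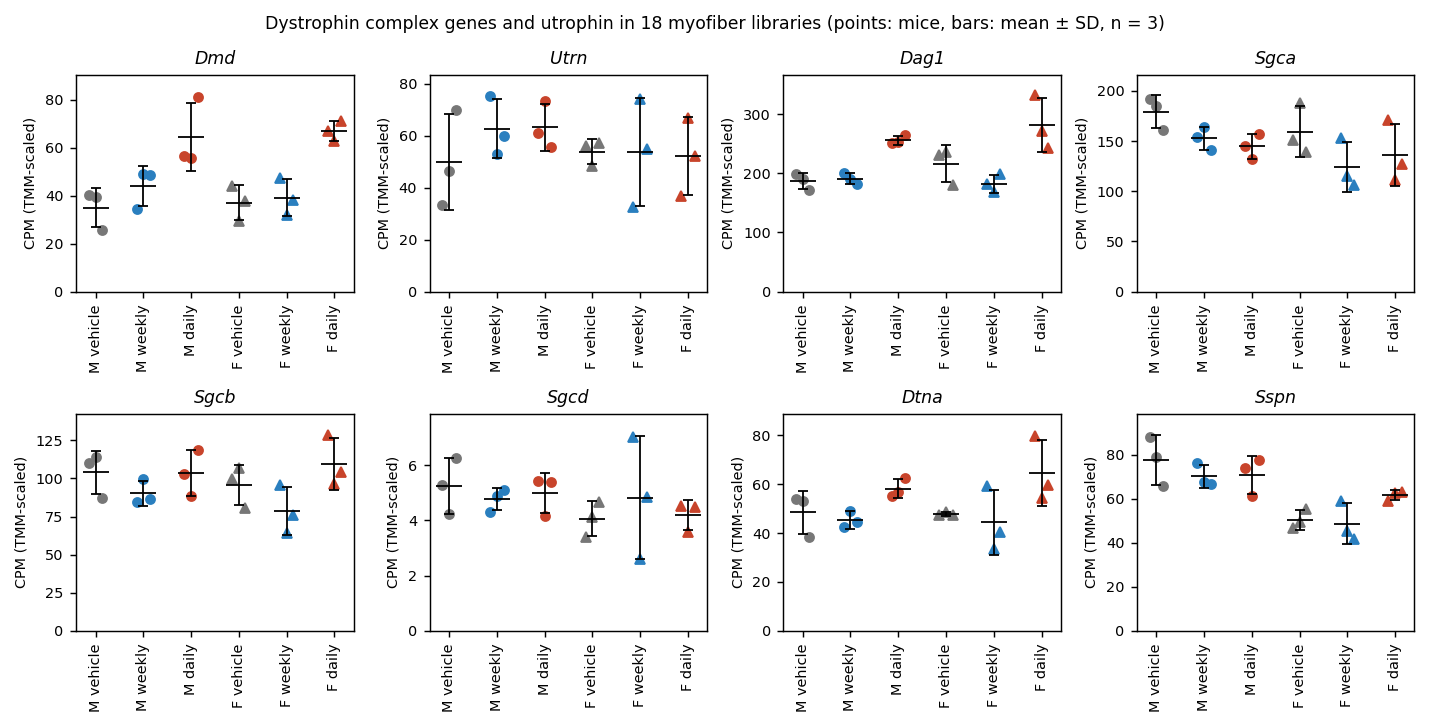
TMM-scaled CPM of the 8 members in 18 libraries, 1 panel per gene, with male groups (M, circles) and female groups (F, triangles) on the horizontal axis; the bars give the mean and SD of 3 mice. The daily points of Dmd and Dag1 sit above all vehicle and weekly points, and those of Utrn overlap every other group.

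Utrn, the relative of Dmd, passed the test in no comparison. The gene (ENSMUSG00000019820) lies on the minus strand of chromosome 10 from 12382188 to 12861735. In males it had 33.4, 46.5 and 69.8 CPM with vehicle, 75.1, 52.9 and 60.0 CPM with weekly prednisone and 61.0, 73.1 and 55.5 CPM with daily prednisone. In females it had 55.9, 48.2 and 57.0 CPM with vehicle, 32.6, 74.0 and 54.8 CPM with weekly prednisone and 36.9, 66.9 and 52.2 CPM with daily prednisone. Every pair of groups overlapped. The male vehicle libraries alone, from 33.4 to 69.8 CPM, covered most of the range of the gene over all libraries, which ran from 32.6 to 75.1 CPM.

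The log2 fold change of Utrn with daily prednisone was 0.34 ± 0.29 in males (edgeR adjusted p = 0.52) and -0.05 ± 0.29 in females (adjusted p = 0.95). With weekly prednisone it was 0.33 ± 0.29 in males (edgeR adjusted p = 0.87) and 0.00 ± 0.29 in females (adjusted p = 0.999). Its standard errors were wide relative to these differences. Per library, the ratio of Utrn to Dmd counts ranged from 0.836 to 2.71 with vehicle, from 0.685 to 2.32 with weekly prednisone and from 0.552 to 1.31 with daily prednisone. The ranges overlapped.

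Utrn varied together with markers of several cell types other than myofibers. Over the 18 libraries its log2 CPM had a Pearson r of 0.93 with the mean log2 CPM of 5 smooth muscle and pericyte markers, of 0.80 with 5 endothelial markers, of 0.77 with 5 fibroblast markers, of 0.70 with 4 Schwann cell markers and of -0.52 with 8 myofiber markers. For Dmd the same values were -0.31, -0.29, -0.24, -0.19 and 0.62. With adipocyte, satellite cell, macrophage and blood markers, Utrn had an r of -0.01, 0.01, 0.18 and 0.45. Dmd had 0.50, -0.21, 0.34 and -0.60 with these lists. All libraries enter each value, so treatment differences and the shared depth and scaling of a library are part of it. The smooth muscle and pericyte markers summed to 777 to 1500 CPM with vehicle, 512 to 1693 CPM with weekly prednisone and 597 to 1636 CPM with daily prednisone, so their ranges overlapped as those of Utrn did. All 5 of these markers were above 1 CPM on average under each treatment. Among all tested genes, the 3 whose log2 CPM was most like that of Utrn were App (r = 0.95), Ptprm (r = 0.95) and Cald1 (r = 0.94, caldesmon).

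Dag1, which encodes both the laminin-binding and the membrane-spanning subunit of dystroglycan, was the second member with higher RNA in all 6 daily libraries. The gene (ENSMUSG00000039952) lies on the minus strand of chromosome 9 from 108204634 to 108263958. In males it had 199, 189.6 and 172 CPM with vehicle, 201, 190.3 and 181 CPM with weekly prednisone and 251, 253 and 264 CPM with daily prednisone. In females it had 231, 237 and 180.0 CPM with vehicle, 182, 168 and 198 CPM with weekly prednisone and 332, 271 and 243 CPM with daily prednisone. The lowest daily library, at 243 CPM, lay just above the highest vehicle library, at 237 CPM.

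Over both sexes Dag1 rose 1.34-fold with daily prednisone, by 0.42 ± 0.10 on the log2 scale (edgeR adjusted p = 0.0102). It rose against weekly prednisone by 0.52 ± 0.10 (edgeR adjusted p = 0.0079). Within 1 sex the daily difference from vehicle was 0.45 ± 0.14 in males (edgeR adjusted p = 0.0633, DESeq2 adjusted p = 0.0211 with 11.4% of genes called) and 0.39 ± 0.14 in females (edgeR adjusted p = 0.166). The male call was gained without female vehicle replicate 2, female vehicle replicate 3, female weekly replicate 2 or female daily replicate 1, which changes the shared spread and scaling, at adjusted p between 0.0371 and 0.0464. The difference between the sexes in the daily response was -0.07 ± 0.20 (female minus male, edgeR adjusted p = 0.95). With the trends on length and GC content removed, the log2 fold change of Dag1 was 0.29 against vehicle over both sexes (adjusted p = 0.228) and 0.45 against weekly prednisone (adjusted p = 0.126). With the adipocyte score as a covariate it was 0.47 against vehicle (adjusted p = 0.204). Over all alternatives apart from leaving out 1 library, the adjusted p of Dag1 ranged from 0.00066 to 0.354 against vehicle. Against weekly prednisone it ranged from 2.5e-05 to 0.159. Both calls held with each library left out in turn.

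Dtna, whose product binds dystrophin and the syntrophins, was higher in every daily than in every vehicle library. The gene (ENSMUSG00000024302) lies on the plus strand of chromosome 18 from 23415415 to 23659714, and an exon of the antisense gene Gm47898 overlaps it, whose reads cannot be separated because the strand setting of the counting is not given in the sources used here. In males it had 54.1, 53.2 and 38.3 CPM with vehicle, 42.3, 49.2 and 44.5 CPM with weekly prednisone and 55.2, 56.9 and 62.5 CPM with daily prednisone. In females it had 47.4, 48.8 and 47.4 CPM with vehicle, 59.1, 33.5 and 40.5 CPM with weekly prednisone and 79.7, 54.2 and 59.5 CPM with daily prednisone. The gap was narrow, since the lowest daily library had 54.2 CPM and the highest vehicle library 54.1 CPM.

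The daily difference of Dtna from vehicle over both sexes, 0.35 ± 0.13 on the log2 scale, did not pass (edgeR adjusted p = 0.0938). Against weekly prednisone it rose by 0.45 ± 0.13, just inside the threshold (edgeR adjusted p = 0.0486). That call was lost without any 1 of 11 libraries, namely all 3 male weekly, all 3 male daily and all 3 female daily replicates and female weekly replicates 2 and 3, with adjusted p between 0.0518 and 0.104 and log2 fold changes between 0.36 and 0.50. It was also lost with the trends on length and GC content removed (0.28, adjusted p = 0.499), with the size factors of DESeq2 in edgeR (adjusted p = 0.0536), with the adipocyte score as a covariate (adjusted p = 0.0562) and with the compared groups fitted alone (adjusted p = 0.105). It held in 5 of 13 alternatives, those that left out 1 library not counted, whose adjusted p ranged from 0.0305 to 0.501. Without female weekly replicate 1 or 2, Dtna was called against vehicle, at adjusted p = 0.0380 and 0.0487.

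Counted over the members, 3 of 8 (Dmd, Dag1 and Dtna) lay entirely above vehicle in the 6 daily libraries of both sexes, a separation seen for 3.34% of all tested genes. Dmd and Dag1 also lay entirely above the 6 weekly libraries, as did 2.19% of tested genes. In males 3 members lay above vehicle (16.4% of tested genes) and 1, Sgca, below (17.1%). In females 4 lay above, the same 3 and Sspn (12.9%). By the test, 2 of 8 members rose against vehicle over both sexes, against 7.48% of tested genes, and 0 fell, against 7.47%. In males 1 rose, against 2.07%, and in females 0 were called, against 0.382%. The median log2 fold change of the 8 was 0.12 over both sexes, against 0.02 for all tested genes. At an unadjusted p under 0.05, 2354 genes differed between daily and vehicle females, and 638 between the sexes in the daily response, where edgeR called 0 genes.

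**Figure D3:**
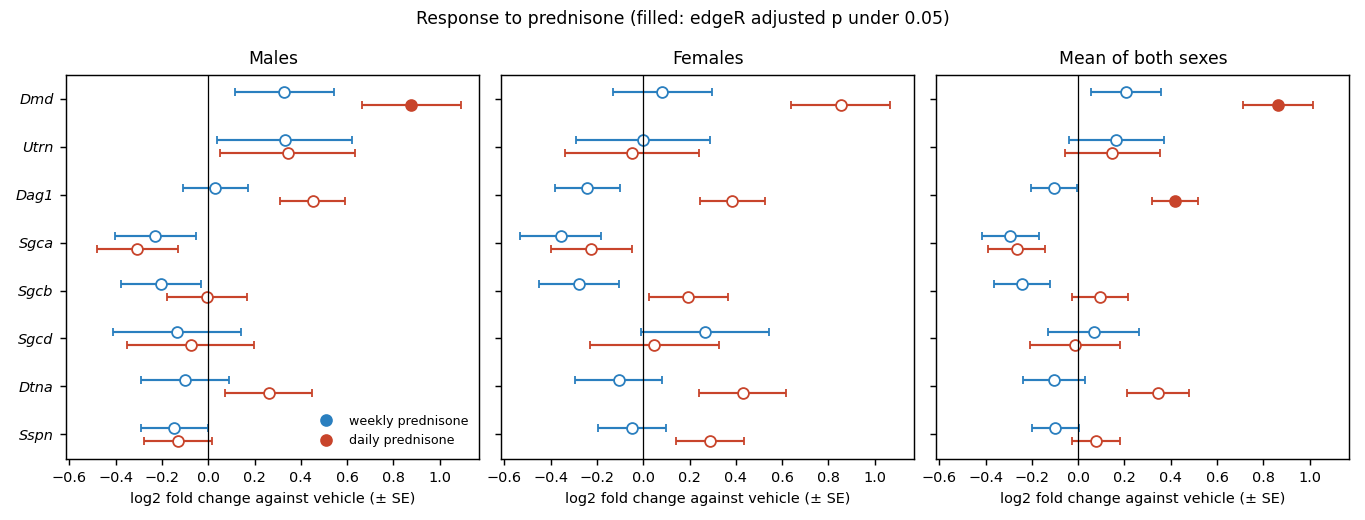
Log2 fold change against vehicle with its standard error for each member in males, in females and as the mean of both sexes, with weekly prednisone in blue and daily prednisone in red. Filled symbols passed an adjusted p of 0.05; these are Dmd in males (0.88) and Dmd (0.87) and Dag1 (0.42) over both sexes.

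The 3 sarcoglycan genes did not pass the test in either direction. Sgca, alpha-sarcoglycan, is made in striated muscle, and the gene (ENSMUSG00000001508) lies on the minus strand of chromosome 11 from 94962791 to 94976327. In males it had 192, 185 and 161 CPM with vehicle, 154, 164 and 141 CPM with weekly prednisone and 145, 132 and 157 CPM with daily prednisone. In females it had 151, 188 and 139.5 CPM with vehicle, 153, 115 and 106 CPM with weekly prednisone and 171, 111 and 127 CPM with daily prednisone. The male daily libraries lay below the male vehicle libraries, and the female groups overlapped. The log2 fold change over both sexes was -0.27 ± 0.12 with daily prednisone (edgeR adjusted p = 0.163) and -0.29 ± 0.12 with weekly prednisone (adjusted p = 0.390). Without female daily replicate 1 the daily value was -0.37 and passed (adjusted p = 0.0405).

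Sgcb, beta-sarcoglycan (ENSMUSG00000029156, minus strand of chromosome 5, 73632749 to 73647713), ranged from 80.9 to 114 CPM with vehicle, from 64.5 to 99.5 CPM with weekly prednisone and from 88.7 to 129 CPM with daily prednisone, with medians of 103, 85.6 and 103 CPM. The weekly libraries had the lowest median. In females the daily libraries, at 129, 96.1 and 104 CPM, lay above the weekly ones, at 95.6, 64.5 and 76.2 CPM, as for 9.83% of tested genes, by a log2 difference of 0.47 ± 0.17 (edgeR adjusted p = 0.169). Over both sexes the daily to weekly difference was 0.34 ± 0.12 (edgeR adjusted p = 0.0975), and without female weekly replicate 1 it was 0.42 and passed (adjusted p = 0.0405). Sgcd, delta-sarcoglycan (ENSMUSG00000020354, minus strand of chromosome 11, 46896253 to 47988969), had only 27 to 105 counts per library. Its levels were 3.39 to 6.25 CPM with vehicle, 2.58 to 7.04 CPM with weekly prednisone and 3.59 to 5.42 CPM with daily prednisone, and at this depth no difference was detectable (daily against vehicle over both sexes -0.01 ± 0.20, edgeR adjusted p = 0.98).

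Sspn, the small membrane protein sarcospan, had less RNA in every vehicle female than in every vehicle male, without passing the test. The gene (ENSMUSG00000030255) lies on the plus strand of chromosome 6 from 145931641 to 145965223, and the antisense gene Sspnos overlaps one of its exons. With vehicle it had 88.2, 78.8 and 65.9 CPM in males and 46.7, 49.3 and 55.4 CPM in females, and 9.22% of tested genes lay lower in the same way. The log2 difference was -0.62 ± 0.15 (female minus male, edgeR adjusted p = 0.0640, DESeq2 adjusted p = 0.0073), where edgeR called 0.765% and DESeq2 1.56% of genes. Leaving out male vehicle replicate 3 (log2 difference -0.72, adjusted p = 0.0436) or female weekly replicate 1 (-0.62, adjusted p = 0.0220) brought it past the threshold. With daily prednisone it had 74.0, 61.2 and 77.6 CPM in males and 59.1, 62.5 and 63.3 CPM in females, and the groups overlapped. With weekly prednisone it had 76.2, 67.5 and 66.8 CPM in males and 59.2, 45.5 and 41.5 CPM in females. The sexes were not tested against each other within the daily or the weekly groups. The daily response was -0.13 ± 0.15 in males and 0.29 ± 0.15 in females, and the difference between the sexes, 0.42 ± 0.21, did not pass (edgeR adjusted p = 0.89).

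Weekly prednisone moved no member past the test in either sex, by edgeR or by DESeq2. The log2 fold changes of the 8 ranged from -0.23 to 0.33 in males, with adjusted p from 0.849 to 0.977, and from -0.36 to 0.27 in females, with adjusted p from 0.644 to 0.999. Among all tested genes edgeR called 0 in males and 0 in females, with 777 and 1083 at an unadjusted p under 0.05, and DESeq2 called 0 and 149, the latter being 0.94% of those it tested. Dmd, the member with the clearest daily response, had a weekly log2 fold change of 0.33 ± 0.21 in males and 0.08 ± 0.21 in females. The difference between the sexes in the weekly response passed for 0 members, with values from -0.33 to 0.40 (edgeR adjusted p = 0.99998 for each).

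Between the daily and weekly females, replicate numbers deviated together, so the comparison was also made with that number as a block. No label says what a number marks. The block was chosen after seeing the data, so calls made with it rest on a pairing found in these same libraries. Without the block no member passed, and edgeR called 0 of the 13596 tested genes, with 2401 at an unadjusted p under 0.05, while DESeq2 called 5.84% of those it tested. The log2 differences without the block were 0.77 ± 0.21 for Dmd (edgeR adjusted p = 0.0877), 0.63 ± 0.14 for Dag1 (adjusted p = 0.0711) and 0.54 ± 0.19 for Dtna (adjusted p = 0.159). With the block 2.16% of tested genes rose, and all 3 were among them, by 0.79 ± 0.21 for Dmd (adjusted p = 0.0474), 0.62 ± 0.13 for Dag1 (adjusted p = 0.0302) and 0.56 ± 0.12 for Dtna (adjusted p = 0.0307). With the block and the trends on length and GC content removed they were 0.55 (adjusted p = 0.172), 0.56 (adjusted p = 0.124) and 0.41 (adjusted p = 0.201), and none passed, where 0.0588% of tested genes rose.

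A filter on level and fold with no test was also applied, with a mean of over 2.5 on the log2 CPM scale and a log2 fold change beyond 0.5 in either direction. The study states these limits for its correlation of genes with muscle function, and the limit on variation that it set for responsive genes was left out, so this is not the study's own selection. The filter admitted Dmd alone among the members in daily males and in daily females, and 0 members in either weekly comparison. This filter admitted 13.2% and 9.47% of tested genes in the daily comparisons and 3.17% and 3.71% in the weekly ones. On CPM without TMM factors, the median of all tested genes moved to 0.27 in daily males, 0.20 in daily females, 0.13 in weekly males and 0.14 in weekly females. On that scale 4 members passed in daily males (Dmd, Utrn, Dag1 and Dtna), 3 in daily females (Dmd, Dag1 and Dtna) and 1 in weekly males (Utrn). The unscaled values of Sgcb (0.23), Sgcd (0.17) and Sspn (0.11) in daily males turned positive from -0.01, -0.08 and -0.13, and all 3 lay below the shifted median. Sgca stayed below 0 in all 4 comparisons on both scales.

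**Figure D4:**
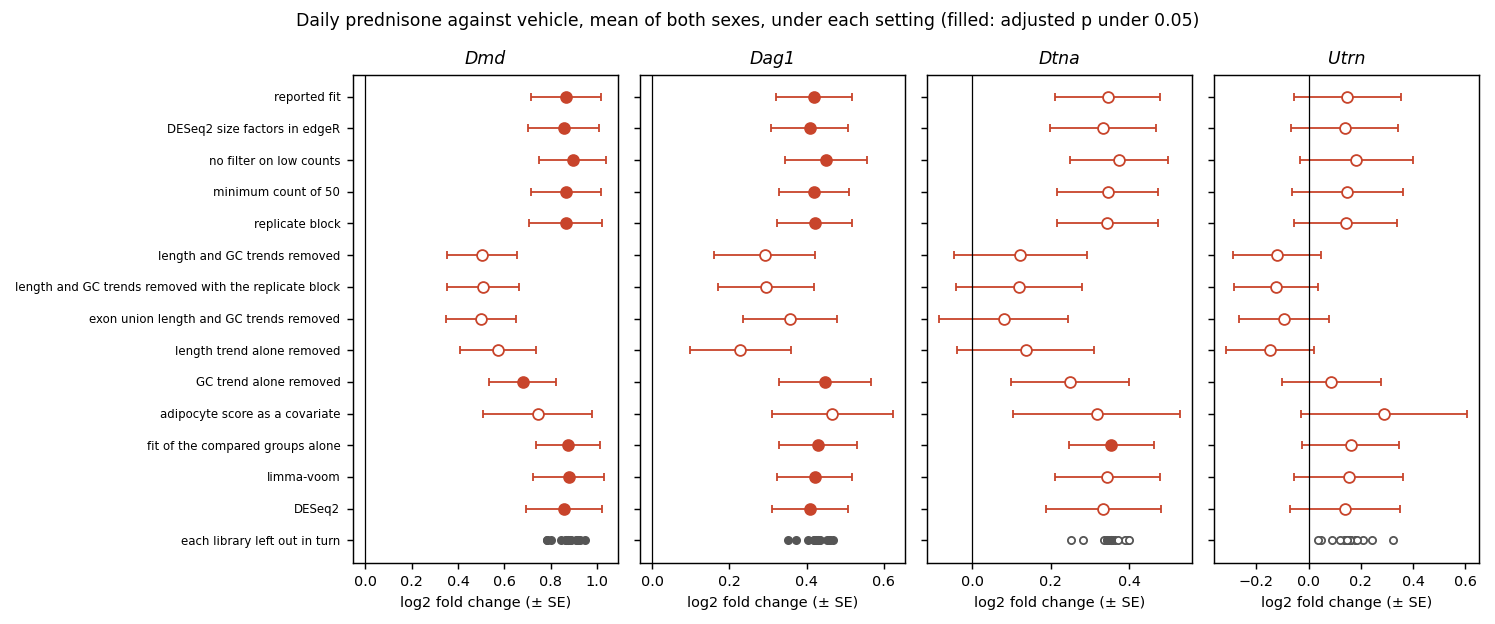
Log2 fold change of Dmd, Dag1, Dtna and Utrn with daily prednisone against vehicle over both sexes under each setting, with standard errors; the bottom row holds the 18 values with a single library left out, and filled symbols passed an adjusted p of 0.05. Dmd falls from 0.87 to 0.50 and Dag1 from 0.42 to 0.29 once length and GC trends are removed, and Utrn lies on both sides of 0.

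Across the 18 libraries the members did not vary as a unit. Log2 CPM correlated most between Sgcb and Dtna (Pearson r = 0.84), Dmd and Dtna (0.77), Dag1 and Dtna (0.76) and Dmd and Dag1 (0.70), and these values contain the treatment differences described above. Sgca and Sgcb had an r of 0.67, Sgca and Dmd -0.17, and Sgca and Dag1 0.03. Utrn had negative values with all 7 other members, from -0.12 with Dag1 to -0.60 with Sgcb. The gene most like Dmd among all tested genes was Phf20l1 (r = 0.94), followed by Rb1cc1 (0.94) and Ankrd52 (0.93). Dag1 was most like Atg9a (0.94), Sgca like Hbs1l (0.96), Sgcb like Dcaf6 (0.96), Sgcd like Lap3 (0.84) and Sspn like Map7d1 (0.93). Dtna was most like Ttn (0.95), the titin gene and 1 of the myofiber markers. The blood markers had a median of 72.1 CPM in the daily and 114.5 CPM in the vehicle libraries, with overlapping ranges. They had an r of -0.75 with Dtna, -0.74 with Dag1 and -0.60 with Dmd, and their part in the daily differences was not tested.

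**Figure D5:**
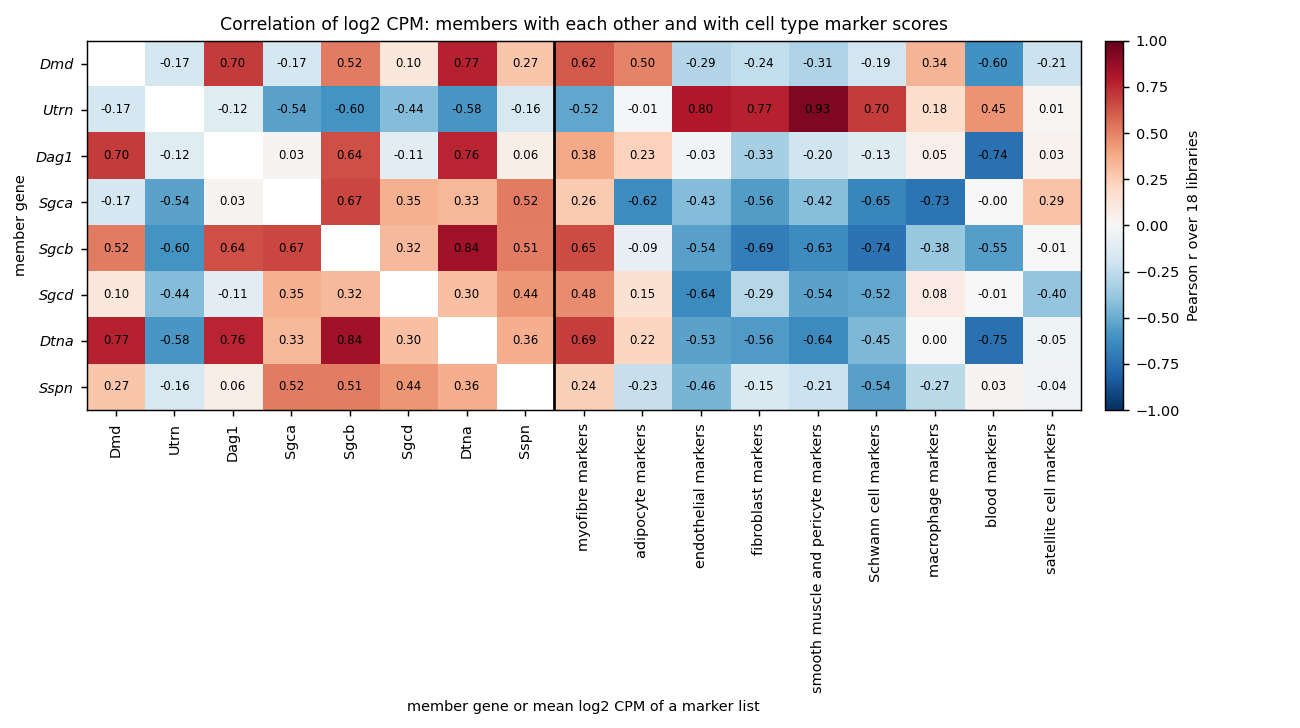
Pearson r of log2 CPM over 18 libraries between the members (left block) and between each member and the mean log2 CPM of 9 marker lists (right block), with red for positive and blue for negative values. Utrn is negative with all other members and reaches 0.93 with the smooth muscle and pericyte markers.

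Of 22 other partners of the complex, 20 were tested, and Krt8 and Sgcz were too low, with 0 counts for Sgcz in all libraries. Over both sexes 2 partners rose and 1 fell with daily prednisone, against 7.48% and 7.47% of all tested genes. Cav3, which encodes the caveolin of muscle membranes, went from a median of 48.3 CPM with vehicle (range 31.7 to 63.5 CPM) to 32.9 CPM with daily prednisone (22.7 to 36.8 CPM), and fell by 0.57 on the log2 scale (SE 0.14, edgeR adjusted p = 0.0144). It fell by 0.79 in males alone (SE 0.20, adjusted p = 0.0316), where 4.38% of tested genes fell. In females alone the log2 fold change was -0.36 (SE 0.20, edgeR adjusted p = 0.389), which did not pass. Ank2, an ankyrin that helps to place dystrophin at the membrane, went from 17.7 CPM (14.7 to 20.01 CPM) to 26.2 CPM (22.0 to 33.6 CPM) and rose by 0.62 ± 0.16 (adjusted p = 0.0157).

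Aqp4, a water channel held at the membrane through the syntrophins, was below 20 CPM throughout and rose by 1.34 ± 0.38 with daily prednisone over both sexes (edgeR adjusted p = 0.0269). Its weekly value over both sexes was 1.28 ± 0.38, which did not pass with edgeR (adjusted p = 0.229), where 0 of 13596 tested genes were called. The weekly value passed with DESeq2 (adjusted p = 0.0379), for which the share of all genes called in that comparison is not given here. Ank3, the ankyrin that also binds dystrophin, rose against weekly prednisone by 0.68 ± 0.18 (adjusted p = 0.0295), and its difference from vehicle was 0.35 ± 0.18 (adjusted p = 0.198). The calls of Ank2, Ank3 and Cav3 were lost with the length and GC trends removed. Ank2 has a longest transcript above 99.5% of tested genes and had 0.37 there (edgeR adjusted p = 0.263). Ank3 had 0.51 against weekly prednisone (adjusted p = 0.285), and Cav3, with a transcript above 8.83% of genes, had -0.33 (adjusted p = 0.184). In males alone Cav3 had -0.51 with the trends removed (edgeR adjusted p = 0.211). Aqp4 had 1.07 (adjusted p = 0.120) and passed in 11 of the 18 fits that left out a library. The call of Ank3 against weekly prednisone held in 15 of these fits and that of Cav3 in males in 12. Those of Ank2 and Cav3 against vehicle over both sexes held in all 18.

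Some of the genes for enzymes that build the laminin-binding sugar chain of dystroglycan or supply mannose for it had less RNA with daily prednisone. Of 18 such genes 17 were tested, and with daily prednisone over both sexes 5 fell and 0 rose, against 7.47% of tested genes that fell. The median log2 fold change of the 17 was -0.10, against 0.02 for all tested genes. Those that fell were Dpm1, Dpm2 and Dpm3, the subunits of the enzyme that makes dolichol phosphate mannose, Gmppb, which makes the GDP-mannose it uses, and B4gat1, a glucuronyltransferase that primes the chain. Their falls on the log2 scale ranged from -0.38 ± 0.08 for B4gat1 (edgeR adjusted p = 0.0051) to -0.68 ± 0.16 for Dpm3 (adjusted p = 0.0086). B4gat1 went from a median of 25.1 CPM with vehicle (22.1 to 26.5 CPM) to 18.9 CPM with daily prednisone (17.03 to 20.4 CPM). The mannose enzymes also serve other kinds of glycosylation, and Gmppb and the 3 Dpm genes had medians of only 3.88 to 10.01 CPM with vehicle. Against weekly prednisone Dpm2, Dpm3 and Gmppb fell, the last by 0.82 on the log2 scale (SE 0.14, adjusted p = 0.0069), where 3.88% of tested genes fell. In males alone 2 of these genes fell, B4gat1 and Dpm3, against 4.38% of tested genes. With edgeR 0 of the 17 passed in females, where 0.382% of tested genes were called, or with weekly prednisone. The call of Dpm3 held in 12 of the 18 fits that left out a library against weekly prednisone and in 13 in males. That of B4gat1 in males held in 14. Against vehicle over both sexes, the call of Dpm1 held in 14 of these fits and that of Gmppb in 16. The other calls of these genes held in all 18. With the length and GC trends removed, Dpm1 (-0.61, edgeR adjusted p = 0.0115) and Gmppb (-0.53, adjusted p = 0.0474) passed against vehicle over both sexes. B4gat1 (-0.33, adjusted p = 0.0527), Dpm2 (-0.24, adjusted p = 0.231) and Dpm3 (-0.38, adjusted p = 0.178) did not. Against weekly prednisone Gmppb passed there (-0.76, adjusted p = 0.0278), and Dpm2 (-0.24, adjusted p = 0.326) and Dpm3 (-0.32, adjusted p = 0.382) did not. Neither male call passed there, with B4gat1 at -0.48 (adjusted p = 0.0860) and Dpm3 at -0.59 (adjusted p = 0.221).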

How the data were processed

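Whole-number read counts per gene were deposited for 18 libraries. Per the labels, the authors processed reads with TopHat2 2.1.0, Bowtie2 2.2.6 and HTSeq, and mm10 and mm9 are listed; the table's coordinates are on mm10. The annotation release and strand setting are not given in the sources used here. Deposited counts carry no normalization; the table's length column, given by the authors, was not used. Genes of unlisted symbol took at most 0.0814% of a library. Counts were kept by filterByExpr (minimum 10), scaled by TMM and fitted in edgeR 4.0.16 (R 4.3.3) with robust quasi-likelihood and 6 group means over all 18 libraries, with Benjamini-Hochberg adjustment over 13596 genes and calls at an adjusted p under 0.05. Standard errors follow from the fold change and F statistic. Log2 CPM carried a prior count of 2. Exon lengths came from mouse GENCODE release 21. Steps were tested on simulated data.

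The labels name no litter or cage, so p-values measure the spread between these libraries. No pair of libraries within a group agreed within sampling noise. Replicate numbers are from titles; of 15 pairs of groups, only the weekly and daily females had all same-numbered correlations of deviations over 0.1 (0.50, 0.48 and 0.44), and that pairing comes from the data alone. The members and gene lists were chosen with earlier results of these data known. Named were the 8 members, called partners and enzymes and the genes most correlated with each member; results for some partners are not reported here. Alternatives were DESeq2 1.42.0, limma-voom (limma 3.58.1), other size factors and filters, a fit of compared groups alone, a replicate block, removal of length and GC trends (splines of 5 degrees of freedom), an adipocyte covariate and leaving out each library.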

Additional observations from a re-analysis of the deposited data

How the results depend on the processing

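No member's called direction was turned by any alternative; of 2992 recomputed fold changes, 167 that did not pass took the other sign, all with a reported size of at most 0.34 on the log2 scale. Daily against vehicle in males, where Dmd alone was called, gave 2 members (Dmd and Dag1) with a minimum count of 50, with the compared groups alone and with DESeq2. It gave 0 with the adipocyte covariate and with any removal of trends (length and GC, the same with the replicate block, by exon union, length alone, GC alone). In females 0 members became 1 (Dmd) with DESeq2. Over both sexes 2 became 0 with the adipocyte covariate and with each removal of trends except GC alone. Dtna was called as well in 1 of the 13 alternatives for that comparison, single libraries left out not counted. Daily against weekly in females, 0 became 1 (Dag1) with a minimum count of 50, 2 (Dmd and Dag1) with DESeq2 and 3 with the block in these 6 libraries; over both sexes, 3 became 0 with the same removals of trends. Female against male vehicle, 0 became 1 (Sspn) with DESeq2. Leaving out single libraries gave 0 to 2 members in daily males, 0 to 1 in daily females, 0 to 2 in daily against weekly females and 0 to 1 in the vehicle sex comparison. The replicate block over all 18 libraries changed no count of members called. The trends by exon union, by length alone and by GC alone and the block within females were chosen after seeing the data. Shares of all tested genes called are given above only for some comparisons with DESeq2 or with the block within females. Elsewhere a change in these counts cannot be set against the share called under that setting. The cause of these changes was not tested.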
